A study of Mus musculus with 5 samples.

Results

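The H3K9ac peaks described here were found in STHdhQ111 cells treated with DOP and had no overlapping peak in the untreated cells. They lay far from the start of any protein-coding transcript. Of the 34286 peaks in the DOP-treated list, 6861 (20%) overlapped no peak of the untreated list by 1 bp or more. A peak was called distal when its centre was more than 10 kb from the nearest start of a protein-coding transcript in the GENCODE vM1 annotation. This left 5107 distal peaks, of which 2235 (43.8%) overlapped no untreated peak, and these 2235 are the DOP-only distal peaks. They were selected on the absence of an overlapping untreated peak and on distance to a start, so both are properties of the choice and carry no test. Counting every transcript start of protein-coding genes left 2066 DOP-only distal peaks, and counting the starts of all transcripts left 1694. The nearest DOP-only distal peaks beyond the distance limit were in introns of Slc5a9 and Rab11fip4, at 10015 bp and 10025 bp from a start. The Slc5a9 peak lay 2083 bp from the start of another Slc5a9 transcript, which is not protein-coding. The nearest DOP-only peaks within the limit, which were not included, were at 9981 bp from a start of Nol11 and 9945 bp from a start of Anxa3. The closest untreated centre to any DOP-only distal peak was 200 bp away, the length of a peak interval.

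STHdhQ111 is a conditionally immortalized striatal progenitor line of the mouse (strain C57BL/6) in which both copies of the huntingtin gene carry the mutant repeat. DOP, 4-deoxypyridoxine hydrochloride, inhibits sphingosine-1-phosphate lyase, the enzyme that breaks down sphingosine-1-phosphate. All cells were kept without serum for 24 h, with 4 mM DOP in 2 samples and with vehicle (DPBS) in 2 untreated samples, and H3K9ac chromatin was precipitated and sequenced. An IgG control of 1 sample was not analysed here, nor were wild-type STHdhQ7 cells. The series gives 1 peak list per condition, so no count below has a replicate error, the depth is unknown, and a difference between the lists cannot be told apart from a difference in depth or in the calling of peaks.

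Acetylation of lysine 9 on histone H3 is found on nucleosomes at active promoters and, at lower levels, at active enhancers. Enhancers are stretches of DNA between genes or within introns where transcription factors bind and from which they act on promoters at a distance. The gene nearest to such a peak is a convenient label and is not necessarily the gene that the DNA acts on. AP-1, a dimer of Fos and Jun proteins, and TEAD proteins are transcription factors that bind many distal elements of adherent cells.

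The cells were checked against marker genes by counting those with a peak centred within 1 kb of a start. The same share over all protein-coding genes is not given here, so whether a count is high or low for these lists cannot be told. Of 8 fibroblast and mesenchyme markers, 7 were marked with DOP and 7 without it, among them Col1a1, Pdgfra and Twist1. Of 10 neural progenitor markers, 4 were marked with DOP (Hes1, Notch1, Sox9 and Vim) and 5 without it, and Nes, Sox2, Sox11, Fabp7 and Prom1 had no peak in either list. Mature striatal neuron markers had a peak in 2 of 10 cases with DOP (Pde10a and Ppp1r1b) and in 0 without it. Of 8 microglia markers 0 were marked with DOP and 1 without it, and of 6 endothelium markers 1 and 0. Progenitor markers were thus split between marked genes and unmarked ones, Nes and Sox2 among the latter, and most mesenchyme markers had a peak.

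The sequences of a few peaks show the kinds of DNA in the set. All are plus-strand 200 bp intervals of mm9 (NCBIM37). The first group holds the highest-scoring DOP-only distal peaks with little repeated sequence, between genes (nearest to BC032203 and Ppara), in an intron (of Mid1, nearest to Gm17379) and near a non-coding start (upstream of Slc38a10), and capitals mark CpG dinucleotides. They range from the 19 CpGs of the Mid1 interval and the 18 of the BC032203 interval to the 2 of the Ppara interval.
BC032203, chr17:46993510-46993709: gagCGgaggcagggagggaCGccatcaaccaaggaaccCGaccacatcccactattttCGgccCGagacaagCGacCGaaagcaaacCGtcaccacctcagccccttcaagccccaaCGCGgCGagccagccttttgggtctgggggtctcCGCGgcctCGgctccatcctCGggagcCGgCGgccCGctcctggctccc
Gm17379, chrX:166435090-166435289: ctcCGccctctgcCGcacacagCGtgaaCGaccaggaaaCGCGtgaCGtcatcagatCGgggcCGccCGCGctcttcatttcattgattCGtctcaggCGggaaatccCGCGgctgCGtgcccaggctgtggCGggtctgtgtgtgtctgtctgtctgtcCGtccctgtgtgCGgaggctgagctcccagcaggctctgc
Slc38a10, chr11:120050538-120050737: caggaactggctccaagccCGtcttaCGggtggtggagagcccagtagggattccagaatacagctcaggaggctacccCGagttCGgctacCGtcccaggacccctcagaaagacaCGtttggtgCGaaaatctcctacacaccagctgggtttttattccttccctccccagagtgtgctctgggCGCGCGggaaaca
Ppara, chr15:85499531-85499730: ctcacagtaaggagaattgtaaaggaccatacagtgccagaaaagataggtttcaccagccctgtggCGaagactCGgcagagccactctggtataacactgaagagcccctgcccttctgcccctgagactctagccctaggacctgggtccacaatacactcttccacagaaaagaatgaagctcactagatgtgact

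The second group holds peaks of the upper 50% of the DOP-treated list that lay farthest from any untreated peak, a neighbouring pair downstream of Zfp827 and 1 upstream of Sgms2. In the first of these sequences capitals mark the letters TGAGTCA, a match to the AP-1 motif, and in the other 2 they mark CpG dinucleotides.
Zfp827, chr8:81733131-81733330: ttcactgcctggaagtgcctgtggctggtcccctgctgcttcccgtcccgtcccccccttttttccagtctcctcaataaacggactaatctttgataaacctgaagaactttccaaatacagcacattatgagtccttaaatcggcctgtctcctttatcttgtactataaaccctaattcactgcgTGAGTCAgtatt
Zfp827, chr8:81733585-81733784: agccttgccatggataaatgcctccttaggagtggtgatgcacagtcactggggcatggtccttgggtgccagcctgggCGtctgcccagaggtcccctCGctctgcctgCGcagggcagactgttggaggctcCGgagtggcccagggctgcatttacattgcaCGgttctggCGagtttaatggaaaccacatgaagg
Sgms2, chr3:131067803-131068002: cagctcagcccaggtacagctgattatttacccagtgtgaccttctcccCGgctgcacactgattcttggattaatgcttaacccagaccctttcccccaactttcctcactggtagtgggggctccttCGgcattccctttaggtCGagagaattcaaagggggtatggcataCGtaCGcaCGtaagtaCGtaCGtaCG

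The third group shows the AP-1 motif TGANTCA, in capitals, in DOP-only distal peaks near Med13l and Btg2. The match near Med13l, TGAGTCA, is of the form that AP-1 is known to bind, with G or C in the middle, and the match near Btg2, TGATTCA, is not.
Med13l, chr5:118964560-118964759: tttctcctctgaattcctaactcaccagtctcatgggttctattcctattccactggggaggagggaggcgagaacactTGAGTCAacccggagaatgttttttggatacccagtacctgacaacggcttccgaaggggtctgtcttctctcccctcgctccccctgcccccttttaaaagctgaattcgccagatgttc
Btg2, chr1:135957731-135957930: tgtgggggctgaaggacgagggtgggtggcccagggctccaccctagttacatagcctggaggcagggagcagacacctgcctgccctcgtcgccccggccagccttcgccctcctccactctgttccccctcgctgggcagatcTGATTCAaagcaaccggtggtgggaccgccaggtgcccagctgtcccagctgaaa

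The fourth group comes from a stretch of repeated sequence on chromosome 6 beside Atg7. Capitals mark a run of 29 bases that 9 of the 10 DOP-only distal peaks nearest to Atg7 had in common.
Atg7, chr6:114507893-114508092: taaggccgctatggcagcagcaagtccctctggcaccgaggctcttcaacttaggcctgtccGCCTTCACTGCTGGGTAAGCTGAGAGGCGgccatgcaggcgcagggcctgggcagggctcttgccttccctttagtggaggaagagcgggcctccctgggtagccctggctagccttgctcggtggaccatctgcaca
Atg7, chr6:114534868-114535067: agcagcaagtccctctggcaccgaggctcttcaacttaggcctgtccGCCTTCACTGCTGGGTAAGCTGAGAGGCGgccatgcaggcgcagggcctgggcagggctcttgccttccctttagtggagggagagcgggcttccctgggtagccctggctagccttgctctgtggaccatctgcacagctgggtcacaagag
Atg7, chr6:114579314-114579513: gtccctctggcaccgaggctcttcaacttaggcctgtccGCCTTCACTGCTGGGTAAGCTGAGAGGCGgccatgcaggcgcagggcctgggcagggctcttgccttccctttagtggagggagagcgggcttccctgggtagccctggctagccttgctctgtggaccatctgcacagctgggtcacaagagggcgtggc

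By place, 1315 of the DOP-only distal peaks (58.8%) were centred between genes and 876 (39.2%) in an intron of a protein-coding gene. Another 22 were centred in a coding exon, 18 in a UTR and 4 in another exon. Of the 876 intronic peaks, 651 (74.3%) had a start of the same host gene as their nearest start. They fell in 630 host genes, and 152 of these genes held 2 or more. The host with most, 26, was Gm20388, a gene model of 4434882 bp, followed by Mid1 with 10, and by Dclk1, Morn1 and Syne1 with 6 each. Untreated-only distal peaks in the same introns numbered 10 for Gm20388, 1 each for Mid1, Morn1 and Syne1, and 0 for Dclk1. These hosts were picked for their DOP-only counts, so lower untreated-only counts are expected from the choice.

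The intron share separated the DOP-only distal peaks from distal peaks found in both lists, but not from those found only in untreated cells. The 2 comparison sets were the 2872 distal DOP-treated peaks that overlap an untreated peak (shared) and the 1832 of 4705 distal untreated peaks that overlap no DOP-treated peak (untreated-only, 38.9% of them). The share in an intron was 39.2% (95% Wilson interval 37.2 to 41.2) in the DOP-only set, 27.7% (26.1 to 29.3) in the shared set and 39.96% (37.7 to 42.2) in the untreated-only set. The difference from the shared set was 11.5 percentage points (adjusted p = 1.69e-17, two-sided Fisher's exact test with Benjamini-Hochberg adjustment over 12 tests of 6 properties, of which the share beyond 100 kb is described without its p). The difference from the untreated-only set was -0.76 points (adjusted p = 0.629, same exact test) and changed sign when centres within 500 bp or 2 kb counted as shared. All such tests and intervals cover the counting of peaks only and compare lists, and neighbouring peaks are not independent.

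**Figure D1:**
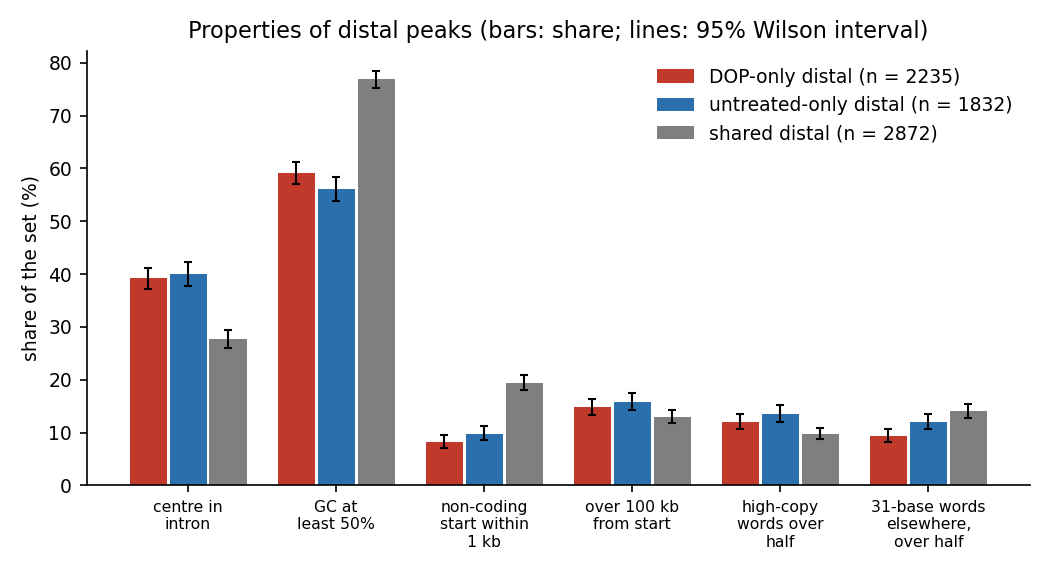
Share of distal peaks (vertical axis, percent) with each of 6 properties in the DOP-only, untreated-only and shared sets, with bars for the share and lines for the 95% Wilson interval. The DOP-only bars lie closer to the untreated-only than to the shared bars in intron share (39.2% against 27.7%), GC content (59.1% against 76.8%) and non-coding starts (8.23% against 19.5%).

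The median DOP-only distal peak lay 34601 bp from the nearest protein-coding start. There were 609 peaks at 10 to 20 kb, 838 at 20 to 50 kb, 457 at 50 to 100 kb, 311 at 100 to 500 kb and 20 beyond 500 kb. The most remote lay 2140258 bp upstream of Cdh20, which encodes a cadherin, and had a score of 24, among the lowest of the list. Upstream of the nearest start lay 1045 peaks, and downstream 1190. Intronic peaks were nearer to a start (median 29836 bp) than intergenic ones (40133 bp). The share beyond 100 kb was 14.8%, against 13.0% in the shared set and 15.8% in the untreated-only set, given without a test since distance to a start chose the peaks. Within the lowest 10% of each list by score it was 17.1%, against 22.4% in the shared set, so the order of the DOP-only and shared sets turned.

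Most DOP-only distal peaks ranked low in their list. The score is the authors' own value, of unstated definition, and served here only to rank the peaks of a list. The median score was 71 (quartiles 42 and 120, range 23 to 1348), against 418.7 over all DOP-treated peaks. As a percentile of the DOP-treated list, in which 100 is the highest, the median DOP-only distal peak stood at 6.25. The shared distal peaks had a median percentile of 26.1, and the untreated-only distal peaks one of 5.25 within their own list. DOP-only peaks within 10 kb of a start stood higher, with a median percentile of 22.6. The lowest 10% of the list held 1478 of the 2235 peaks (66.1%), and the upper 50% held 32 (1.43%). Both lists as deposited are longer than the numbers of peaks stated in the study's methods, and the filter behind the smaller numbers is not given in the sources used here. Without the lowest 10% of each list, 757 DOP-only distal peaks were left, nearest to 596 genes, and 40.7% of them were intronic against 27.3% of the shared set. Scores are values of the calls that chose the peaks, and carry no test.

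**Figure D2:**
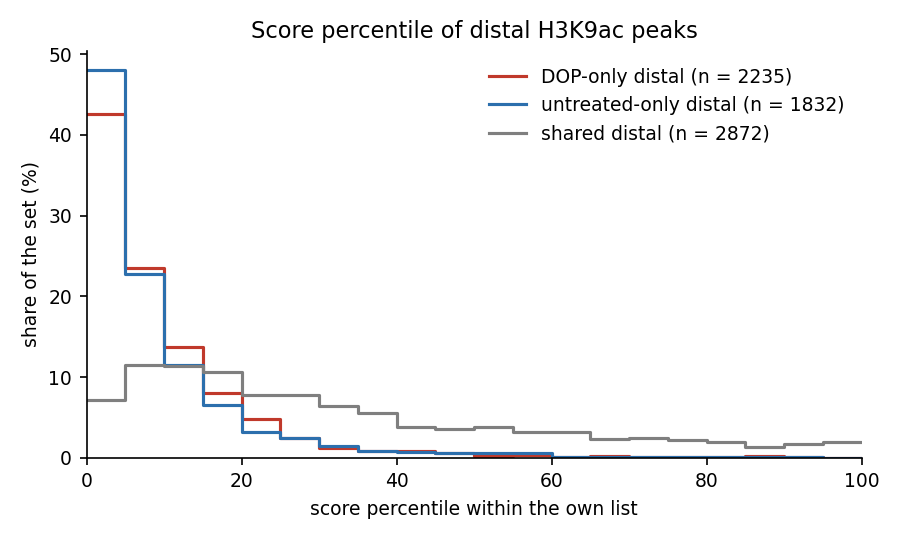
Score percentile of each distal peak within its own list (horizontal axis, 100 is the highest score) against the share of the set (vertical axis, percent in steps of 5 percentiles). The DOP-only and untreated-only sets pile up at the left, with medians of 6.25 and 5.25, and the shared set spreads across the scale with a median of 26.1.

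Distance to the nearest untreated centre divided the set into peaks beside untreated peaks and peaks in stretches without any. There were 186 DOP-only distal peaks with an untreated centre at up to 500 bp, 195 at 500 to 2000 bp, 232 at 2 to 10 kb, 951 at 10 to 50 kb, 344 at 50 to 100 kb and 327 beyond 100 kb. The median was 22642 bp, and 1622 peaks (72.6%) had no untreated centre within 10 kb. Of the 32 in the upper 50% of the list, 20 had an untreated centre within 1 kb and 3 had none within 10 kb. The high-scoring DOP-only distal peaks thus lay mostly at the side of an untreated peak.

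**Figure D3:**
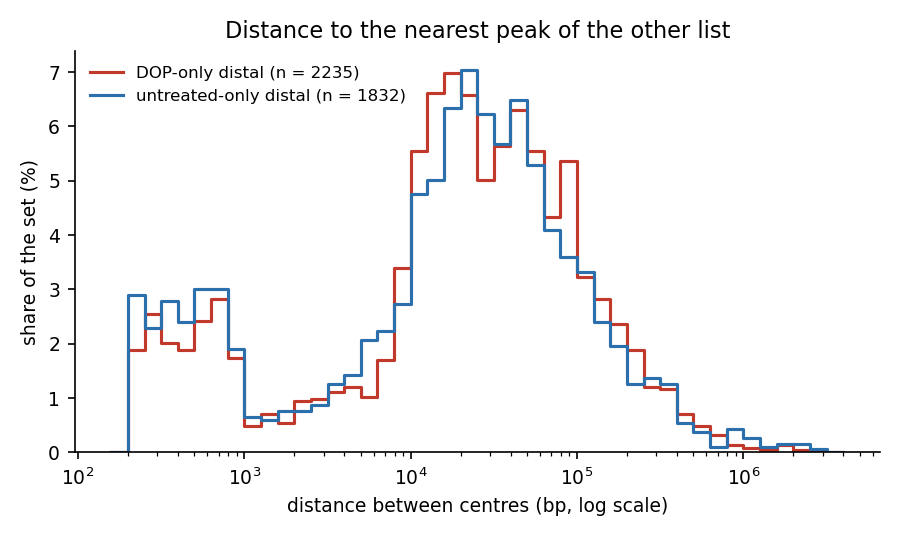
Distance from each DOP-only distal peak to the nearest untreated centre, and from each untreated-only distal peak to the nearest DOP-treated centre (horizontal axis, bp, log scale), against the share of the set (vertical axis, percent). Both sets show a small group below 1 kb and a large one above 10 kb, with medians of 22642 bp and 21879 bp.

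Chaining centres within 1 kb placed the 2235 peaks in 1933 regions. Of the peaks, 1416 (63.4%) were alone in their region and 317 (14.2%) shared it with a peak that overlapped an untreated one. There were 266 regions with 2 or more DOP-only distal peaks, 568 peaks in all, and 31 regions with 3 or more. The region with most held 8 of them, in an intron of Mid1 on the X chromosome. The next, each with 3, ordered by summed score, were near Scaf8 on chromosome 17 (1406.5), downstream of Zfp827 on chromosome 8 (1400), near Scd1 on chromosome 19 (490) and in Rgnef on chromosome 13 (422). Those near Zfp827 and Scd1 held no shared peak, whereas the region near Scaf8 held 3 and that in Rgnef held 2. Scd1 encodes a stearoyl-CoA desaturase, which makes monounsaturated fatty acids.

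The 10 highest-scoring peaks came from 3 places. The highest was between genes at chr17:46993510-46993709, 25247 bp upstream of BC032203, with a score of 1348 and a percentile of 94.8. Its GC content was 67.5%, and an untreated centre lay 673 bp away. Another lay at chr15:85499531-85499730, 66364 bp upstream of Ppara, the gene of a nuclear receptor that controls fatty acid oxidation, with a score of 961, a GC content of 50.5% and an untreated centre at 968 bp. The other 8 were intronic in Mid1, which encodes a microtubule-associated ubiquitin ligase, and had Gm17379 as the nearest gene. Their percentiles ran from 74.2 to 92.2, and untreated centres lay 384 to 3213 bp away.

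The Mid1 stretch held 15 DOP-treated peaks and 6 untreated peaks, with 4 of each overlapping. The median peak there in the DOP-treated list had 58.8% of its 31-base words at another position of the genome. Reads of repeated words can be placed at more than 1 position, and the part of this in the count at Mid1 was not tested. Without the X chromosome, the 12 differences between the sets kept their directions and their sides of the threshold.

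The DOP-only distal peaks of the upper 50% farthest from any untreated peak were at Zfp827 and Sgms2. Zfp827 encodes a zinc finger protein. Its pair of peaks, at chr8:81733131-81733330 and chr8:81733585-81733784, had scores of 595.2 and 480.8, and percentiles of 66.4 and 56.4. They lay 30356 and 30810 bp downstream of the nearest start, between genes, with the nearest untreated centre 85219 and 84765 bp away. The other peak of the region had a percentile of 39.2. Neither peak of the pair had a repeated word, and no untreated peak was called in the region. Sgms2 encodes sphingomyelin synthase 2, which makes sphingomyelin from ceramide. The peak at chr3:131067803-131068002 was 20044 bp upstream of its start, with a score of 455, a percentile of 53.9 and the nearest untreated centre at 62076 bp. The other 2 of the 5 farthest were near Gm15319 on chromosome 8 (6724 bp from an untreated centre, with 74.1% of its words repeated) and in the Mid1 stretch (3213 bp).

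By nearest start, the DOP-only distal peaks were assigned to 1570 of 22372 protein-coding genes (7.02%). All distal DOP-treated peaks were assigned to 2683 genes (12%), and untreated-only distal peaks to 1351 (6.04%). There were 1143 genes with 1 DOP-only distal peak, 288 with 2, 81 with 3 and 33 with 4. The genes with most were Gm17379 with 11, Atg7 with 10, and Dclk1, Foxp1 and Syne1 with 7 each. Being picked for these counts, they are expected to have fewer untreated-only peaks from the choice.

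Dclk1 encodes a microtubule-associated kinase of developing neurons. Of its 7 DOP-only distal peaks, 6 were in introns of Dclk1, and the percentiles ran from 0.595 to 5.52. They formed a run of 3 between 57664 and 58485 bp downstream of the nearest start, a pair at 64939 and 65303 bp, and 2 single peaks. No untreated-only distal peak and 1 shared distal peak had Dclk1 as the nearest gene. The intergenic peak had an untreated centre 307 bp away. No Dclk1 peak had more than 5.29% of its words repeated.

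Foxp1 encodes a forkhead transcription factor of striatal projection neurons. Its 7 peaks included 4 in its own introns, 2 in an intron of the neighbouring gene Eif4e3 and 1 between genes 257356 bp downstream. The highest-scoring, 51559 bp upstream of the nearest Foxp1 start, had a score of 288 and a percentile of 35.0, and the next, 50393 bp upstream, a score of 175 and a percentile of 20.1. Untreated centres lay 5543 and 6709 bp from these. Foxp1 was also nearest to 3 untreated-only distal peaks.

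Syne1 encodes nesprin-1, which links the nucleus to the cytoskeleton. Of its 7 peaks 6 were intronic and 1 was in a coding exon, with percentiles of 1.19 to 18.03. The highest, with a score of 160, had an untreated centre 566 bp away. Syne1 was nearest to 1 untreated-only and 3 shared distal peaks.

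Atg7 encodes the E1-like enzyme of autophagy. All 10 of its DOP-only distal peaks were intergenic, 13736 to 85157 bp from the nearest start, and their centres spanned 71421 bp of chromosome 6 with spacings of 2418 to 14692 bp. Every 31-base word of these intervals occurred elsewhere in the genome, and 35 of the 45 pairs had 10 or more such words in common. The scores fell in a narrow range, with percentiles of 6.12 to 10.8. In this stretch with its margins, the DOP-treated list held 16 peaks and the untreated list 6, with 5 of each overlapping. The copies printed above are thus near-identical, and reads from 1 of them could be placed at another, so the number of separate acetylated sites there cannot be told.

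Related sequence of this kind was uncommon in the set. There were 107 peaks (4.79%) with 10 or more 31-base words in common with another DOP-only distal peak, in 30 groups, and 1794 peaks (80.3%) had no repeated word. The largest group held 14 peaks, the Atg7 stretch and neighbours nearest to Hrh1. Peaks with 50% or more of their words repeated made up 9.35% (8.21 to 10.6) of the set, against 14.1% of shared distal peaks (adjusted p = 6.80e-07) and 12.01% of untreated-only distal peaks (adjusted p = 0.0157, both Fisher's exact test with Benjamini-Hochberg adjustment). The second difference missed the threshold with a limit of 20 kb (adjusted p = 0.0913, Fisher's exact test), in the lowest 10% by score (0.0924), without that 10% (0.165) and with starts of all transcripts (0.582).

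The reference used here does not mark repeats. High-copy sequence, local copies such as those of the Atg7 stretch included, was measured by words of 16 bases with 20 or more copies in the assembly. At least 50% of the interval was covered by them in 269 DOP-only distal peaks (12.04%), against 9.78% of the shared set (adjusted p = 0.0216) and 13.5% of the untreated-only set (adjusted p = 0.187, both Fisher's exact test with Benjamini-Hochberg adjustment). The first comparison no longer passed with 1 peak per region (adjusted p = 0.264, Fisher's exact test) or without the lowest 10% by score (0.183), and among peaks in the lowest 10% of the list its sign turned, at 13.3% of DOP-only against 19.2% of shared peaks (adjusted p = 0.00337).

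The DOP-only distal peaks were richer in GC than the DNA around them and poorer than shared distal peaks. The median GC content was 51.5% (quartiles 47 and 55.5), against 45.5% in 4454 intervals of 200 bp taken 10 kb to either side. It was 50.5% in the untreated-only set, 55% in the shared set and 59.5% over all DOP-treated peaks. A GC content of 50% or more was found in 59.1% (57.1 to 61.1) of DOP-only distal peaks, in 76.8% of shared ones (adjusted p = 8.28e-41) and in 56.1% of untreated-only ones (adjusted p = 0.0895, both Fisher's exact test with Benjamini-Hochberg adjustment). Among the intervals to either side, 27.4% reached it. The difference from the shared set kept its direction and passed the threshold also within the lowest 10% by score.

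**Figure D4:**
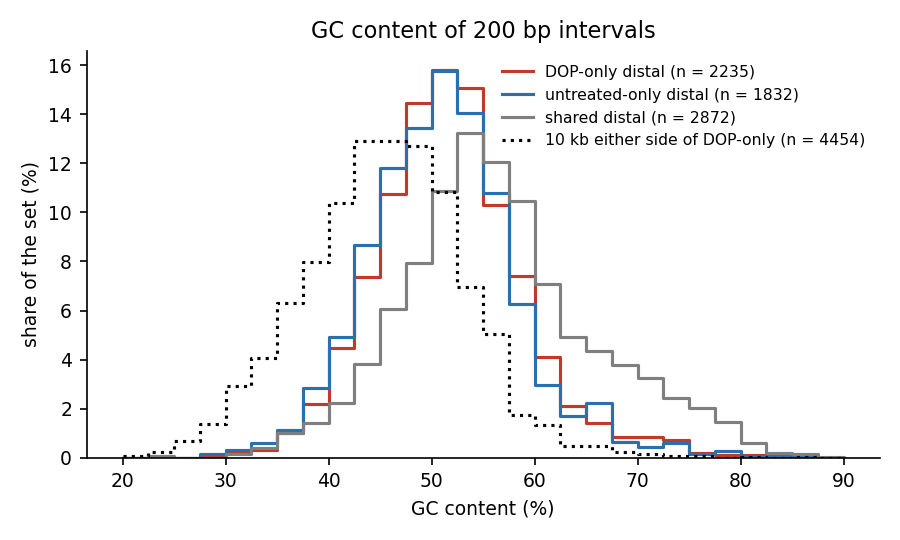
GC content of the 200 bp intervals (horizontal axis, percent) against the share of each set (vertical axis, percent in steps of 2.5) for the 3 distal sets and for intervals 10 kb to either side of the DOP-only peaks. The DOP-only and untreated-only curves nearly coincide, with medians of 51.5% and 50.5%, between those of the surrounding DNA (45.5%) and of shared peaks (55%).

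CpG dinucleotides, which are kept at unmethylated promoters, were likewise less frequent in the DOP-only than in the shared set. The order of the DOP-only and untreated-only sets differed between the median and the share below. The observed number over that expected from base composition had a median of 0.246 in the DOP-only set, 0.232 in the untreated-only set and 0.454 in the shared set. It was 0.6 or more in 269 DOP-only distal peaks (12.04%), in 12.9% of untreated-only and in 35.9% of shared ones. Within the DOP-only set it was lower in introns (median 0.198) than between genes (0.282).

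Few DOP-only distal peaks were at the start of a transcript that is not protein-coding. A start of this kind lay within 1 kb of 184 (8.23%, 7.16 to 9.45), against 19.5% of the shared set (adjusted p = 3.61e-30) and 9.77% of the untreated-only set (adjusted p = 0.130, both Fisher's exact test with Benjamini-Hochberg adjustment). The transcripts were lincRNAs in 36 cases, processed transcripts in 34, transcribed processed pseudogenes in 24 and miRNAs in 13. The highest-scoring was at a processed transcript, 2810410L24Rik, 529 bp from the start, with a score of 656.7 and an untreated centre at 214 bp. Among the lincRNAs the highest were at Pisd-ps2 (score 471, 709 bp) and 2810008D09Rik (score 407, 173 bp).

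The miRNA genes with a known name were Mirlet7i, Mir760 and Mir203. Mirlet7i, of the let-7 family, had a peak 852 bp from its start with a score of 351.1, a percentile of 42.4 and an untreated centre at 280 bp. Mir760 had a peak at 683 bp with a score of 164 and an untreated centre at 643 bp. Mir203, a miRNA known from the epidermis, had 2 peaks with scores of 85 and 49, at 217 and 621 bp, with GC contents of 77.5% and 66%. The nearest untreated centres were 163887 and 163483 bp away, so the Mirlet7i and Mir760 peaks adjoined an untreated peak and the Mir203 peaks did not.

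The nearest genes were set against lists of genes that fit the cells and the treatment. For each list the number of genes nearest to a DOP-only distal peak is given beside the 7.02% found over all protein-coding genes, with no test. All distal DOP-treated peaks were nearest to 12% of protein-coding genes, and to a larger share of each list below except histone deacetylases. The numbers for untreated-only distal peaks are given as well, since a long gene, or one with much intergenic DNA around it, can be nearest to many peaks of any kind. The lists of actin and axon guidance genes follow themes that the study drew from the same cells, and are not independent of it. Some of these peaks consist of sequence found elsewhere in the genome, which was counted after seeing the data.

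Focal adhesion and actin genes had the highest share, 17 of 29 (58.6%), with 27 peaks, against 7 of 29 for the untreated-only set and 19 of 29 for all distal DOP-treated peaks. The highest-scoring peak was in an intron of Pxn, which encodes paxillin, an adaptor of focal adhesions (score 211, 25114 bp downstream). Next, both with a score of 190, were peaks in introns of Lpp, a LIM domain protein of adhesion sites (42577 bp downstream), and Tns1, which encodes tensin 1 (38629 bp upstream). Tns1 had 5 DOP-only distal peaks, all intronic, with scores of 190, 186.5, 121.7, 104.3 and 59. In the same order, untreated centres lay 29549, 417, 38805, 39155 and 51403 bp from these. The distance was 3520 bp for the Pxn peak and 56051 bp for the Lpp peak. Integrin genes Itgb1, Itgav, Itga1 and Itga11, the kinase gene Ptk2 and the vinculin gene Vcl were also among the 17. The only peaks of Itgb1 (score 46) and Itga1 (score 41, 427493 bp upstream) had 100% and 72.9% of their 31-base words elsewhere in the genome. With peaks under 50% repeated words, 15 of 29 genes were left, against 6 of 29.

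For collagen and matrix genes, all distal DOP-treated peaks gave 13 of 28 and the untreated-only set 9 of 28. The DOP-only set gave 10 of 28 (35.7%), with 20 peaks. The highest-scoring lay 62229 bp upstream of Col1a1, the gene of a type I collagen chain (score 366, with an untreated centre at 7327 bp), and the next 87251 bp upstream of Col5a1 (score 116, 44023 bp). For TGF-beta and BMP genes, all distal DOP-treated peaks gave 12 of 30 and the untreated-only set 5 of 30. The DOP-only set gave 9 of 30 (30%), with 19 peaks. The highest there were 93747 bp downstream of Smad6, an inhibitory Smad (score 292, untreated centre at 721 bp), and 25003 bp upstream of Tgfbr3, which encodes the co-receptor betaglycan (score 146, 701 bp). Tgfb2, the gene of a ligand, had 4 DOP-only distal peaks with scores of 107, 97, 44 and 41.

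For axon guidance genes, all distal DOP-treated peaks gave 9 of 38 and the untreated-only set 8 of 38. The DOP-only set gave 6 of 38 (15.8%). Unc5c, a netrin receptor gene, had an intronic peak 26266 bp downstream of its nearest start with a score of 126, and Slit3, which encodes a secreted guidance ligand, had an intergenic peak 54712 bp upstream with a score of 78 and an untreated centre at 994 bp. The only Sema3d peak had 67.6% of its words repeated, and without it 5 of 38 genes were left, against 8 of 38.

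For AP-1 and immediate early genes, all distal DOP-treated peaks gave 8 of 21 and the untreated-only set 5 of 21. The DOP-only set gave 5 of 21 (23.8%). Those of the DOP-only set were Myc, Atf3, Nr4a1, Ier5 and Jun. Myc, the gene of a growth-promoting transcription factor, had peaks 61994 and 56229 bp downstream with scores of 207 and 154. Jun, a subunit of AP-1, had peaks 42444 and 251312 bp upstream with scores of 75 and 62. For striatal neuron and ventral forebrain genes, all distal DOP-treated peaks gave 6 of 26 and the untreated-only set 3 of 26. The DOP-only set gave 6 of 26 (23.1%), and 7 of the 12 peaks were those of Foxp1. The others were near Dlx2, Meis1, Meis2, Rarb and Penk, with scores of 29 to 87. The Meis1 and Penk peaks had every word repeated, and 4 of 26 genes were left without such peaks, against 3 of 26.

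For neural progenitor and Sox genes, all distal DOP-treated peaks gave 10 of 27 and the untreated-only set also 10 of 27. The DOP-only set gave 6 of 27 (22.2%). The highest-scoring were 11625 bp downstream of a start of Notch2, a receptor of the Notch pathway (score 327, untreated centre at 1272 bp), and 20348 bp upstream of Id3, an inhibitor of helix-loop-helix factors (score 198, 12043 bp). Nfia, a transcription factor gene of glial development, had 5 peaks with scores of 27 to 193.3.

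Sphingolipid metabolism and receptor genes were nearest in 7 of 31 (22.6%), with 8 peaks, against 2 of 31 for the untreated-only set and 9 of 31 for all distal DOP-treated peaks. Beside Sgms2, described above, the highest was 71788 bp upstream of Smpd3, which encodes a neutral sphingomyelinase (score 108, untreated centre at 743 bp). Degs1, the ceramide-forming desaturase gene, had 2 peaks with scores of 95.4 and 79.6, in which every 31-base word occurs elsewhere in the genome, so reads from other copies could be placed there. With peaks under 50% repeated words, 6 of 31 genes were left, with 6 peaks, against 2 of 31. Lass6, a ceramide synthase gene, had a peak with a score of 89, Sgms1 one of 65, Ugcg one of 58 and S1pr1, the gene of a sphingosine-1-phosphate receptor, one of 53. Histone deacetylase genes were nearest in 0 of 11 cases, against 1 of 11 both for the untreated-only set and all distal DOP-treated peaks.

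Short sequence motifs were counted on both strands of the 200 bp intervals, with a match taken as a description and not as a bound site. The AP-1 motif TGANTCA was found in 223 DOP-only distal peaks (9.98%, 8.80 to 11.3), in 7.86% (6.72 to 9.19) of untreated-only, 4.28% (3.603 to 5.09) of shared and 3.38% (3.20 to 3.58) of all DOP-treated peaks. Intervals 10 kb to either side held it in 5.23% (4.62 to 5.92). The interval of the DOP-only set overlapped that of the untreated-only set and lay above those of the other 3. With G or C as the middle base, the form that AP-1 is known to bind, the motif was in 161 DOP-only distal peaks (7.20%, 6.20 to 8.35), in 6.06% of untreated-only, 3.10% of shared and 3.10% of the flanking intervals.

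The AP-1 share was 9.25% (7.502 to 11.3) in introns and 10.3% (8.81 to 12.1) between genes, and was 10.9% among peaks without an untreated centre within 10 kb. Of 231 matches in the set, 113 (48.9%) lay within 50 bp of the peak's centre, a window that covers 50% of the interval. Restricted to the lowest 10% of each list by score, the share was 10.8% in the DOP-only, 9.18% in the untreated-only and 5.78% in the shared set. Restricted to a GC content of 45 to 55%, it was 10.8%, 9.08% and 5.74%, and 4.67% in flanking intervals. With both limits it was 11.2% (9.30 to 13.5), 10.5% and 7.39% (4.78 to 11.3), and the intervals of the DOP-only and shared sets then overlapped.

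The TEAD motif GGAATG was in 13.5% (12.1 to 14.9) of DOP-only distal peaks, in 10.9% (9.58 to 12.4) of untreated-only, 9.75% of shared and 10.5% (9.64 to 11.4) of flanking intervals. The GC box CCGCCC, bound by Sp factors at promoters, was in 8.19% of DOP-only, 8.08% of untreated-only, 20.2% of shared and 3.28% of flanking intervals. The Sox motif AACAAT was in 6.71%, 6.99%, 5.33% and 10.98% of the same sets, and the E-box CANNTG in 62.3%, 62.2%, 54.2% and 66.4%. The CRE motif TGACGTCA was found in 3 DOP-only distal peaks.

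**Figure D5:**
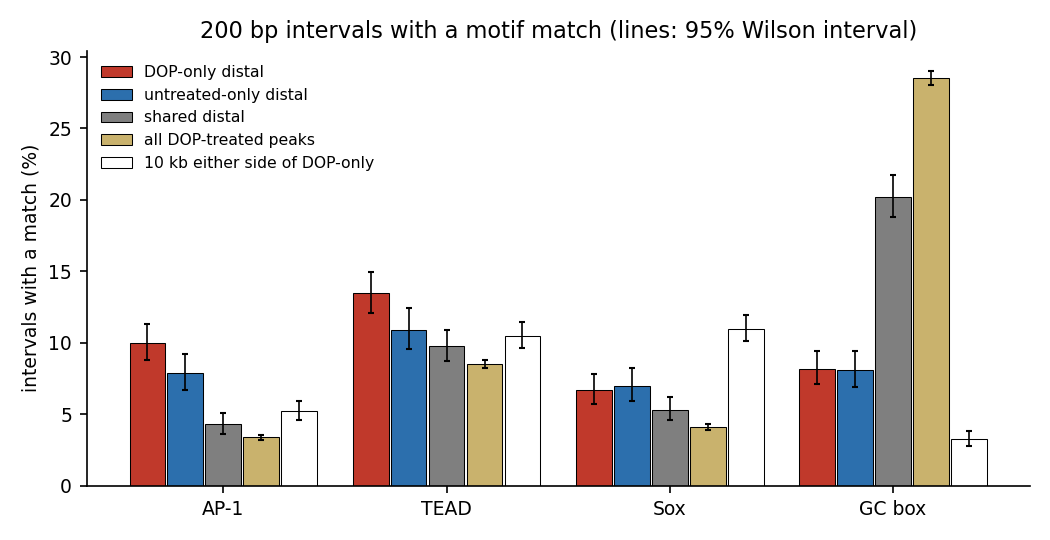
Share of 200 bp intervals with a match on either strand (vertical axis, percent) for 4 motifs, in the 3 distal sets, all DOP-treated peaks and intervals 10 kb to either side of the DOP-only peaks, with lines for the 95% Wilson interval. The AP-1 bar is 9.98% in the DOP-only set against 4.28% in shared peaks and 5.23% in flanking intervals, and the GC box shows the opposite order between the DOP-only (8.19%) and shared (20.2%) sets.

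The DOP-only distal peaks were spread over the chromosomes. They made up between 33.0% (chromosome 19) and 52.3% (chromosome 7) of the distal DOP-treated peaks of a chromosome, leaving out Y, which had 1 distal peak and 0 of the set. Chromosome 6, with the Atg7 stretch, held 154 of them, the most of any chromosome, and X, with the Mid1 stretch, held 56.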

How the data were processed

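H3K9ac ChIP-seq of STHdhQ111 cells was measured in 2 DOP-treated and 2 untreated samples. Per the paper's methods, the authors used Bowtie 2 (mm9) for alignment and GPS for peak calling, whereas the submitters' processing notes list BWA 0.7.10. They deposited 1 list per condition, with a score per peak whose definition is not given in the sources used here, nor are the threshold, the pooling of samples or the use of IgG. The deposited intervals were compared by overlap of at least 1 bp, and read against NCBIM37 and GENCODE vM1 (transcripts of type protein_coding). Sets were compared with two-sided Fisher's exact tests, Benjamini-Hochberg adjustment over 12 tests and a threshold of 0.05. The planned measure of soft-masked repeats was replaced by 16-base words with 20 or more copies, since the reference marks none. Nearest genes were labelled by gene name. The peaks named were the 10 with the highest scores, the 5 of the upper 50% farthest from an untreated peak, the 5 regions and 5 genes with most peaks, the examples of each gene list (up to 2 by rule, with further members named after their values were seen) and the 2 at each side of the 10 kb limit. Other peaks at non-coding starts and host genes were also named after their values were seen, and the peaks printed for AP-1 and Atg7 were chosen likewise. Members, gene lists, motifs and tests were chosen with earlier results of these data known. Alternatives were other rules for sharing, distance limits, start sets, score ranges and 1 peak per region. The result of 1 gene list is not reported here. The functions were tested on simulated peaks. Python 3.11.15, numpy 2.4.6, pandas 2.3.3, scipy 1.17.1, numba 0.67.0 and matplotlib 3.10.9 were used.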

Additional observations from a re-analysis of the deposited data

How the results depend on the processing

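Of 175 recomputed values, 146 kept their direction and their side of the threshold or moved little, and the lower shares of GC-rich peaks, non-coding starts and repeated words and the higher intron share against the shared set did so under every alternative that gave a value, whereas other results moved. With centres within 2 kb counted as shared, the intron difference from untreated-only peaks turned to 1.87 percentage points, the repeat difference from shared peaks was 0.960 and no longer passed, and the median percentile was 5.31. With 500 bp these were 0.154 for the intron difference and 5.86 for the percentile, and the difference beyond 100 kb from shared peaks, described without a test, was 2.36. With a reciprocal overlap of 50% the latter was 2.51, the repeat difference 1.63 and the percentile 7.39. With a limit of 20 kb the intron difference was 0.222, the repeat difference 1.27 and the repeated-word difference from untreated-only peaks -2.20. With 5 kb the percentile was 6.79. With starts of all transcripts the percentile was 5.74, the repeat difference 0.603 and the repeated-word difference -1.04, and the share at non-coding starts has no value, since those starts are then excluded. With 1 peak per region the repeat difference was 1.29. In the lower 50% by score, the difference beyond 100 kb was -0.0681 and the repeat difference 1.03. In the lowest 10%, added after seeing the data, 1478 peaks were left. The difference beyond 100 kb, described without a test, was -5.27, and the repeat difference passed at -5.89. That in repeated words from untreated-only peaks was -2.38, and that in non-coding starts from untreated-only peaks passed at -2.29. Without that 10%, added likewise, 757 peaks and 596 nearest genes were left, the difference beyond 100 kb was -0.484, and the repeat difference (1.89) and the repeated-word difference from untreated-only peaks (-2.58) no longer passed. The added AP-1 shares by score, GC content and middle base were also chosen after seeing the data. The cause of these changes was not tested by any of the values. No paired analysis was possible because the lists carry no replicate numbers (1 list per condition). Depth limits every count by an unknown amount.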
